A study of Homo sapiens with 16 samples.

Results

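Passages from an epithelial to a mesenchymal state were compared in 2 lineages, that of cells carrying a guide against EED and that of unedited C2 cells. The quantity was the interaction, (C1-sgEED-Mes minus C1-sgEED-Epi) minus (C2-Mes minus C2-Epi), on the log2 scale and for every gene tested. It used 8 of the 16 libraries of the series, 2 in each of 4 groups, and 3866 of 18285 tested genes (21.1%) had a transition change that differed between the lineages. All cells were HMLER, a transformed human mammary epithelial line made by gene transfer, grown in 1 mixed mammary epithelial medium with insulin, EGF and hydrocortisone. C2-Epi and C2-Mes are the unedited epithelial and mesenchymal C2 cells, labelled wild type. C1-sgEED-Epi and C1-sgEED-Mes (below sgEED-Epi and sgEED-Mes) are labelled EED-KO and come from C1, an epithelial HMLER population that the series design calls stable, whereas it calls C2-Epi and sgEED-Epi plastic. The guide is thus tied to the C1 background in this contrast, so an effect of EED loss and a difference between C1 and C2 cells cannot be told apart. Whether a group's libraries came from independent cultures is not labelled. P-values here rest on 1 spread per gene, shared by the replicates of all 16 libraries of the series, which may be technical. That shared spread can understate the variation in C2-Mes, whose replicates differed most. The labels also do not say whether the epithelial and mesenchymal cells of a lineage are 1 clone, nor which RNA came from sorted and which from unsorted cells. In the deposited tables the column names of sgEED-Epi and sgEED-Mes differ by a term that may denote a clone. The columns of C2-Mes follow dissimilar naming schemes, and the name of replicate 1 reads as a repeated preparation.

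In an epithelial to mesenchymal transition, cells give up adherens junctions, desmosomes and keratin filaments and take up a fibroblast-like programme of matrix, vimentin and motility genes. Repressors of the ZEB and SNAIL families bind E-box sequences in epithelial promoters and are classical switches of this change. EED is the subunit of Polycomb repressive complex 2 (PRC2) that reads and propagates methylation of lysine 27 on histone H3, a mark that keeps developmental and lineage genes silent.

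Total counts of the 8 libraries ran from 18872124 to 31950649, both in C2-Mes, and mitochondrial transcripts made up 7.01% to 12.5%. Replicates differed most in C2-Mes, where the log2 differences between the libraries had an SD of 0.89 across genes, against at most 0.493 in every other group. Summed markers went with the state labels, except the epithelial sum in sgEED-Mes, which lay within the range of the epithelial libraries. The 6 epithelial markers summed to between 1170 and 2180 CPM (counts scaled to library size with TMM factors) in the epithelial libraries, to 76.3 and 81.2 in C2-Mes, and to 1380 and 1180 in sgEED-Mes, where KRT8 and KRT18 made up nearly all of the sum. The 6 mesenchymal markers summed to between 818 and 1410 CPM in epithelial and between 7820 and 10500 in mesenchymal libraries. Most defining markers of other cell types were at or near 0: CD3E, CDH5 and MYOD1 had no count in any of the 8 libraries. At or below 1 CPM stayed 4 of 5 defining leukocyte, 3 of 5 endothelial, 4 of 5 neural and 3 of 4 striated muscle markers. The endothelial exceptions were PECAM1 and VWF, with VWF at 1.64 and 5.18 CPM in C2-Mes and at most 0.254 elsewhere. The longer marker lists, which hold genes that other cells also use, differed between groups. The endothelial list summed to 26.3 and 40.1 CPM in C2-Mes, 22.8 and 23.1 in sgEED-Mes and at most 11 in epithelial libraries. Its members went different ways: PECAM1 was highest in C2-Mes (16.6 and 25.5 CPM), and ERG was at 12.8 and 14.8 in sgEED-Mes and 0 in C2-Mes. The neural list summed to 266 and 286 CPM in sgEED-Mes, mostly NES and MAP2, 101 and 94.1 in C2-Mes, and between 64.6 and 154 in epithelial libraries. Of its 7 measured genes 1 interaction was called higher and 3 lower, calls that were lost without C2-Epi replicate 1. The striated muscle list summed to 147 and 143 CPM in C2-Mes, mostly TTN, against 25.1 to 50.8 elsewhere, and the leukocyte list to at most 6.84. The part of other cell types in the results was not tested. In bulk RNA, fewer cells of a type and less RNA per cell cannot be told apart.

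The interaction was positive for 1864 genes (10.2% of those tested) and negative for 2002 (10.9%), by edgeR's quasi-likelihood test with Benjamini-Hochberg adjusted p under 0.05, which is meant wherever an adjusted p is given. A positive value means that the change under the EED guide was the more positive of the pair. The shares of 10.2% and 10.9% are the background for the higher and lower calls of each gene list below. Among positive calls the median difference was log2 1.84 and 869 genes differed at least 4-fold. Among negative calls the median was -1.51, with 735 at least 4-fold. The calls depended on the libraries: leaving out 1 at a time gave between 2710 calls (without C2-Epi replicate 2) and 5566 (without C2-Mes replicate 2), and 2303 genes (12.6%) were called in all 8 of these fits. With only the compared libraries fitted, 2130 were called. No gene called here was called in the other direction in any of these fits.

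The lineages shared much of their change. Across all tested genes the transition changes had the same sign for 65.4%, with a correlation across genes of r = 0.497. Genes are not independent replicates, and this value is a description. From C2-Epi to C2-Mes 7246 genes changed (39.6%), from sgEED-Epi to sgEED-Mes 6673 (36.5%), and of the 3917 that changed in both, 3369 (86%) went the same way. The difference then took several forms. In 889 genes with a called interaction both transitions passed with the same sign: 288 fell less under the EED guide, 157 fell more, 333 rose less and 111 rose more. Only the C2 transition passed in 740 genes that rose and 626 that fell, and only that of the EED guide in 495 that rose and 480 that fell. In 548 genes (3% of those tested) the transitions were called in opposite directions, 303 of them rising under the guide and 245 falling. The remaining 88 passed in neither transition. Of the 548 genes with opposite directions, 540 (2.95% of those tested) kept their called interaction in all 8 fits that left out 1 library. The opposite direction of both transitions was less stable: between 388 and 482 of the 548 were still called so in any 1 of these fits, 289 with only the compared libraries fitted.

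**Figure D1:**
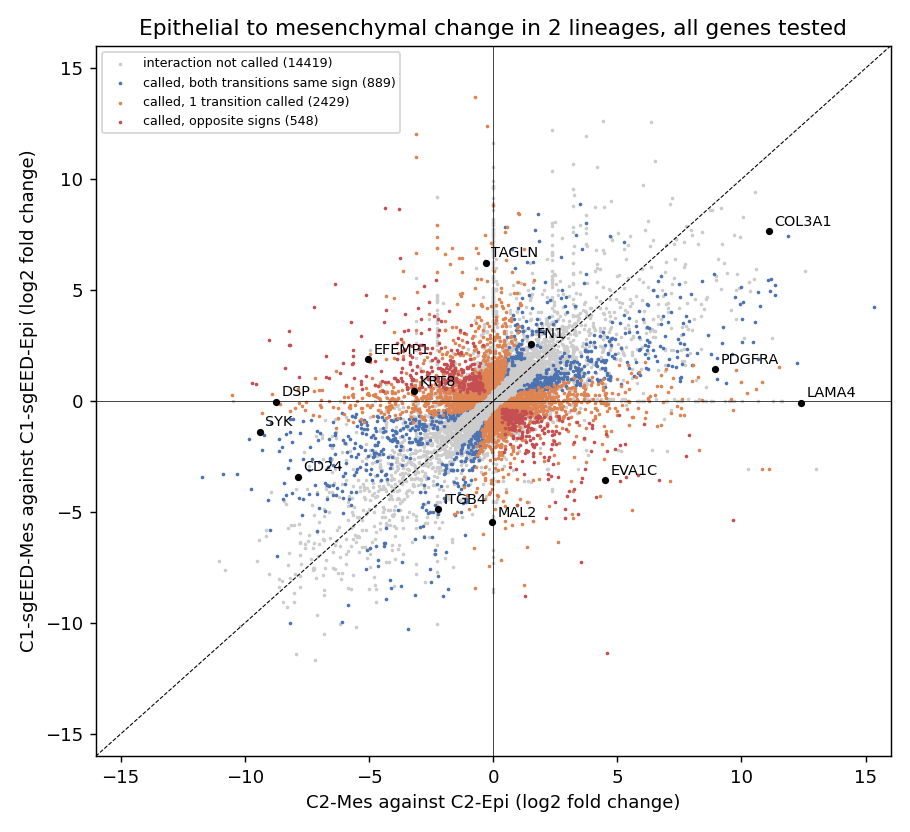
Each point is 1 of the 18285 genes tested, with the C2 transition on the x axis and the EED-guide transition on the y axis, both as log2 fold changes. The dashed line marks equal change, and the 548 genes called with opposite signs lie at the upper left and lower right. Genes at 0 counts in a whole group have fitted values that depend on the model's prior and form the vertical and horizontal lines of points.

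A called interaction can come from a difference between the epithelial starting states, the mesenchymal end states, or both. These comparisons use the same libraries as the interaction and are a breakdown of it. The epithelial groups differed in 5417 genes (29.6%) and the mesenchymal groups in 7664 (41.9%). That order depended on the method: voom, which here weighted libraries by quality, gave 7026 epithelial and 3909 mesenchymal differences. The breakdown that follows is of the edgeR calls. Of the 3866 called genes, 1825 (47.2%) differed between the mesenchymal groups alone, 790 (20.4%) between the epithelial groups alone, and 1134 (29.3%) in both, of which 504 differed in opposite directions. In 117 (3.03%) neither comparison passed.

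EED itself had a called interaction. Its transcripts stood at 26.7 and 29.6 CPM for sgEED-Epi, 5.22 and 5.50 for sgEED-Mes, 19.7 and 18.1 for C2-Epi, and 11.2 and 12.5 for C2-Mes. All 4 groups were apart, with sgEED-Mes lowest and sgEED-Epi highest. The fall was log2 -2.39 under the guide and -0.67 in C2, a difference of -1.72 (SE 0.21, adjusted p = 4.5e-05). A guide can inactivate a protein and leave its transcript, so the level in sgEED-Epi does not show whether EED was disrupted there. Of 33 measured Polycomb genes 6 were called higher and 1, EED, lower (median interaction log2 0.20, against -0.02 over all genes). That is 21.2% called, near the 21.1% of all genes. EZH2, the catalytic subunit of PRC2, was at 37.8 and 42.3 CPM for sgEED-Epi, 46.2 and 55.8 for sgEED-Mes, 34.5 and 36.8 for C2-Epi, and 21.5 and 23.7 for C2-Mes. It fell in C2 (log2 -0.66, adjusted p = 0.0038) and did not pass under the guide (0.35, adjusted p = 0.091), and the difference was 1.00 (adjusted p = 0.0043). BCOR, a subunit of a variant PRC1 complex, rose under the guide (log2 0.72) and fell in C2 (-2.18). SUZ12, another core PRC2 subunit, had no called interaction (log2 -0.29, adjusted p = 0.73). The Polycomb count was unstable, from 3 genes in total called without C2-Epi replicate 2 to 16 without C2-Mes replicate 1.

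The desmosome, the plaque that ties keratin filaments to the cell border, held the largest contrast among epithelial genes. DSP, which encodes its linker desmoplakin, stood at 1124 and 908 CPM for sgEED-Epi, 908 and 1089 for sgEED-Mes, 1239 and 1285 for C2-Epi, and 4.09 and 2.01 for C2-Mes. Both C2-Mes libraries were far below the other 6, of which C2-Epi was highest and the sgEED groups overlapped. The C2 transition lowered DSP by log2 -8.75 (adjusted p = 1.4e-10), the EED-guide transition did not pass (-0.03, adjusted p = 0.95), and the difference was 8.72 (SE 0.38, adjusted p = 6.9e-09). The desmosomal cadherins DSC2 and DSC3 fell in both lineages, but less under the guide. DSC3 was at 262 and 203 CPM for sgEED-Epi, 73.9 and 95.7 for sgEED-Mes, 296 and 335 for C2-Epi, and 11.1 and 5.53 for C2-Mes (interaction log2 3.82, adjusted p = 9.2e-06). DSC2 gave log2 3.08 (adjusted p = 6.0e-06), although its own fall under the guide (-0.81) lost its call without sgEED-Epi replicate 1 (-0.55, adjusted p = 0.088) or sgEED-Mes replicate 1 (-0.70, adjusted p = 0.058). The plakophilins PKP1 and PKP3 and periplakin (PPL), which belong to the same plaques, went the other way (log2 -1.08, -1.72 and -2.34). In all, 4 of 11 measured desmosome genes were called higher and 3 lower.

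The 250 bases before the RefSeq start sites (GRCh38.p14) of DSP and DSC2 are shown with that of KRT5, a basal keratin that fell in both lineages, because all 3 hold the E-box CACCTG, the core to which ZEB and SNAIL repressors bind. Capitals mark CACCTG or its reverse complement CAGGTG, and each sequence runs 5′ to 3′ on its gene's strand.
DSP, chr6:7541421-7541670, plus strand: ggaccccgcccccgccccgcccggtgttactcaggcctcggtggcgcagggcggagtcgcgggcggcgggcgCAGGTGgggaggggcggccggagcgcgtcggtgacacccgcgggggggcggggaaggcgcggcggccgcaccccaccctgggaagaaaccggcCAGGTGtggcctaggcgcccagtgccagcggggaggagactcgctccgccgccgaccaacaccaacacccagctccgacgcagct
DSC2, chr18:31102422-31102671, minus strand: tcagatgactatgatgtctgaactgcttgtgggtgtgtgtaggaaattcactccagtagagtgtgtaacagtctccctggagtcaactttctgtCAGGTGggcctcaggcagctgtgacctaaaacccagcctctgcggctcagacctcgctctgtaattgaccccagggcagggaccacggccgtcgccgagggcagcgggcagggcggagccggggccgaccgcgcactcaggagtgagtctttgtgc
KRT5, chr12:52520395-52520644, minus strand: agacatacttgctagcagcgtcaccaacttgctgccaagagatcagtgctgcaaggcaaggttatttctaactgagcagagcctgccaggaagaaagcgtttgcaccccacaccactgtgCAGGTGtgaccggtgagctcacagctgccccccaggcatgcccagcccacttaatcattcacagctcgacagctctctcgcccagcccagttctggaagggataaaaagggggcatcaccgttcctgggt
DSP has 2 such matches, DSC2 1 and KRT5 1 in these windows. A match is a description of the letters and says nothing about binding in these cells.

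Of 15 measured simple keratin and luminal genes 4 were called higher and 2 lower. KRT8, a simple keratin of luminal epithelium, stood at 650 and 756 CPM for sgEED-Epi, 1033 and 877 for sgEED-Mes, 279 and 256 for C2-Epi, and 28.7 and 30.2 for C2-Mes. The sgEED libraries were all above the C2 libraries, and C2-Mes was lowest. The difference in transition was log2 3.62 (adjusted p = 3.7e-08), from a fall of -3.18 in C2. KRT8 rose by 0.44 under the guide (adjusted p = 0.021), a call lost without sgEED-Epi replicate 1 (0.34, adjusted p = 0.15) or sgEED-Mes replicate 1 (0.32, adjusted p = 0.15). Its partner KRT18 fell less under the guide (log2 -1.10 against -3.10), as did KRT7 (-0.66 against -2.97). KRT17 was at 2460 and 2914 CPM for sgEED-Epi, 750 and 607 for sgEED-Mes, 2061 and 2005 for C2-Epi, and 26.1 and 16.6 for C2-Mes (interaction log2 4.60, adjusted p = 6.3e-08). CD24, a surface protein of epithelial mammary cells, was at 318 and 356 CPM for sgEED-Epi, 24.1 and 39.4 for sgEED-Mes, 131 and 133 for C2-Epi, and 0.584 and 0.543 for C2-Mes. It fell in both lineages, by log2 -3.41 and -7.87.

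Other genes lost in C2-Mes kept part or all of their level in sgEED-Mes. The kinase gene SYK was at 73.7 and 87.7 CPM for sgEED-Epi, 29.1 and 33.2 for sgEED-Mes, 90.9 and 82.9 for C2-Epi, and 0.117 and 0.128 for C2-Mes (interaction log2 8.03, adjusted p = 1.3e-09). The epithelial levels overlapped between lineages, and the mesenchymal levels were far apart. AFAP1L2, an adaptor that binds actin filaments, gave log2 7.99 and CNTNAP2, a neurexin-family adhesion gene, 8.11. Under the guide SYK, AFAP1L2 and CNTNAP2 still fell, by log2 -1.37, -0.97 and -1.71. PTGFRN, a membrane partner of tetraspanins, stayed between 182 and 212 CPM in the 4 sgEED libraries, was at 158 in both C2-Epi libraries, and fell to 2.34 and 1.12 in C2-Mes (log2 6.61, adjusted p = 8.5e-09).

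**Figure D2:**
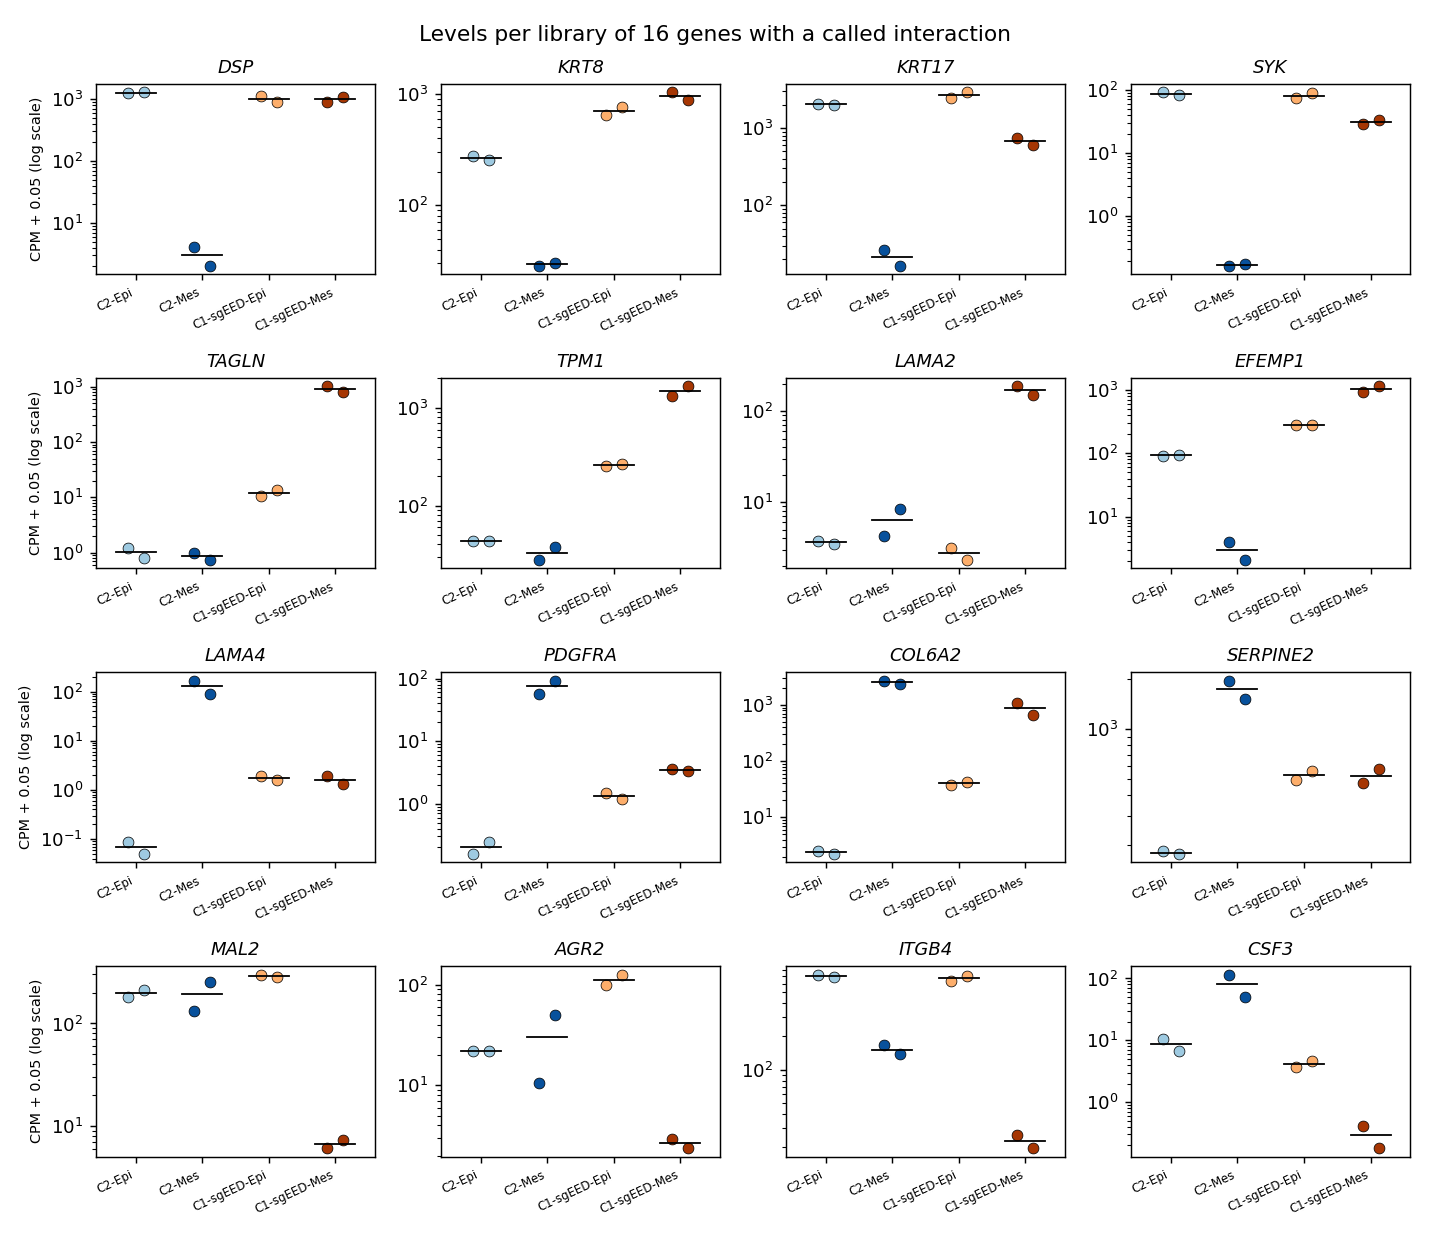
Each point is the level of a gene in 1 library in CPM plus 0.05, on a log axis of its own range, with a bar at the mean of the 2 libraries of a group. DSP is at about 1000 CPM in 3 groups and below 5 in C2-Mes, TAGLN is above 800 only in sgEED-Mes, and LAMA4 is above 80 only in C2-Mes.

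A further set of epithelial genes went the other way and fell only or more under the EED guide. MAL2, a lipid raft protein of apical transport, was at 299 and 285 CPM for sgEED-Epi, 6.09 and 7.22 for sgEED-Mes, 179 and 213 for C2-Epi, and 131 and 253 for C2-Mes. The sgEED-Mes libraries were lowest and C2-Epi and C2-Mes overlapped (interaction log2 -5.42, adjusted p = 3.5e-07). The C2 change of MAL2 did not pass (-0.03, adjusted p = 0.95) but did without C2-Mes replicate 2 (-0.62, adjusted p = 0.022). The tight junction gene CLDN4 fell by log2 -4.19 under the guide and did not pass in C2 (-0.18), and AGR2, a secretory disulfide isomerase of luminal cells, fell by -5.42. AGR2 in C2-Mes was at 10.4 and 50.2 CPM, on both sides of C2-Epi (21.7 and 22.1), and its C2 change was log2 1.20 without C2-Mes replicate 1 and -1.11 without replicate 2. Of 23 measured junction genes 9 were called lower and 2 higher (median interaction log2 -0.99). CDH1, which encodes E-cadherin, was among the 9: it was at 297 and 349 CPM for sgEED-Epi, 0.508 and 0.0881 for sgEED-Mes, 211 and 221 for C2-Epi, and 0.935 and 0.607 for C2-Mes. All mesenchymal libraries were below 1 CPM. Its difference of log2 -1.79 (adjusted p = 0.026) kept its direction but lost its call without C2-Epi replicate 1 (adjusted p = 0.059), C2-Epi replicate 2 (0.053), C2-Mes replicate 1 (0.058), sgEED-Epi replicate 2 (0.062) or sgEED-Mes replicate 2 (0.090). EPCAM fell alike in size, by log2 -6.98 and -7.03, with an interaction of 0.05 (SE 0.31, adjusted p = 0.95).

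Basal genes, among them those of the hemidesmosomes that anchor mammary epithelium to the basement membrane, fell in both lineages. Of 20 measured members of the basal and hemidesmosome list, 20 fell under the guide (17.3% of all genes) and 19 in C2 (18.6%). The interaction was called higher for 6 and lower for 6, with 7 and 10 without C2-Mes replicate 2 and 2 and 6 with only the 8 libraries fitted. ITGB4, the hemidesmosome integrin, was at 634 and 705 CPM for sgEED-Epi, 25.8 and 19.7 for sgEED-Mes, 722 and 687 for C2-Epi, and 167 and 138 for C2-Mes. The epithelial groups overlapped and sgEED-Mes was lowest (interaction log2 -2.67, adjusted p = 9.8e-07). KRT15 fell by log2 -8.92 under the guide and -4.30 in C2. TP63, the transcription factor of basal identity, was at 0.181 and 0.0881 CPM in sgEED-Mes and 1.46 and 3.32 in C2-Mes, from between 137 and 181 in the epithelial libraries (log2 -3.86, adjusted p = 9.5e-05). SOX15 was at 54.6 and 59.5 CPM for sgEED-Epi, 0.254 and 0.132 for sgEED-Mes, 36.3 and 32.1 for C2-Epi, and 2.81 and 8.75 for C2-Mes (log2 -5.62). FAT2, a giant cadherin of basal keratinocytes, and KRT14 fell less under the guide, by log2 -5.79 against -8.999 and -5.87 against -7.11. KRT5 fell by -5.06 and -6.03, and that difference of 0.96 (adjusted p = 0.017) was lost without C2-Epi replicate 1 (adjusted p = 0.052), C2-Epi replicate 2 (0.051), sgEED-Epi replicate 1 (0.069) or sgEED-Mes replicate 1 (0.066).

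Of 16 measured transcription factors that drive the transition, 2 were called higher and 4 lower. PRRX1, a homeobox factor of mesenchyme, was at 0.343 and 0.421 CPM for sgEED-Epi, 12.2 and 17.0 for sgEED-Mes, 0.0361 and 0.0384 for C2-Epi, and 104 and 114 for C2-Mes. It rose in both lineages and ended lower in sgEED-Mes (interaction adjusted p = 1.3e-05), and no fold is given because C2-Epi holds 2 counts. FOXC2 rose by log2 2.12 under the guide and 6.13 in C2, from a start that was higher in sgEED-Epi (11.7 and 14.9 CPM against 1.08 and 1.12). SNAI2 fell in C2 (log2 -1.37, adjusted p = 0.0018) and did not pass under the guide (0.55, adjusted p = 0.15), with an interaction of 1.92 (adjusted p = 0.0038). ZEB1 was at 6.02 and 1.61 CPM for sgEED-Epi, 65.9 and 31.2 for sgEED-Mes, 2.17 and 1.88 for C2-Epi, and 177 and 92.1 for C2-Mes. It rose in both lineages, by log2 3.68 and 6.05. The difference of -2.37 (adjusted p = 0.031) fell to -1.14 without sgEED-Epi replicate 1 (adjusted p = 0.29) and was also lost without C2-Epi replicate 1 (adjusted p = 0.082), C2-Epi replicate 2 (0.11), C2-Mes replicate 1 (0.16) or sgEED-Mes replicate 2 (0.11). TWIST1 (log2 -0.17, SE 0.31, adjusted p = 0.77) and ZEB2 (-0.91, SE 0.49, adjusted p = 0.23) had no called interaction, although ZEB2 passed without C2-Epi replicate 1 (-1.71, adjusted p = 0.042).

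Of 26 measured mesenchymal genes, 21 rose under the guide (19.2% of all genes) and 19 in C2 (21%), and the interaction was called higher for 6 and lower for 8. Higher calls were 3 without sgEED-Epi replicate 1 or with only the 8 libraries fitted and 4 without either C2-Epi library, and lower calls 12 without C2-Mes replicate 1. VIM, the intermediate filament of mesenchymal cells, was at 1112 and 1305 CPM for sgEED-Epi, 3862 and 4447 for sgEED-Mes, 858 and 801 for C2-Epi, and 4763 and 5862 for C2-Mes. It rose in both lineages, less under the guide (interaction log2 -0.90, adjusted p = 0.0052). PDGFRA and PDGFRB, the receptors of platelet-derived growth factor, parted. PDGFRA was at 1.41 and 1.12 CPM for sgEED-Epi, 3.48 and 3.30 for sgEED-Mes, 0.108 and 0.192 for C2-Epi, and 56.6 and 92.9 for C2-Mes (log2 -7.50, adjusted p = 1.7e-07), and PDGFRB rose more under the guide (log2 5.71 against 3.75). S100A4, a calcium-binding protein also called fibroblast-specific protein, rose in C2 alone (log2 3.25), and the collagen receptor DDR2 rose by 7.54 in C2 and 2.64 under the guide. CDH11, a cadherin of mesenchyme, rose under the guide and fell in C2 (log2 1.06 and -3.31). ITGA11, a collagen-binding integrin, went from 0.152 and 0.105 CPM in sgEED-Epi to 634 and 489 in sgEED-Mes and held at most 2 counts in either C2 group. Its interaction (adjusted p = 0.0037) could not be called without C2-Epi replicate 2 (adjusted p = 1.0). CDH2, which encodes N-cadherin, had no called interaction (log2 -0.52, adjusted p = 0.51), but did without C2-Mes replicate 1 (-1.02, adjusted p = 0.024).

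LAMA4, a laminin chain of vessel and muscle basement membranes, was at 1.83 and 1.51 CPM for sgEED-Epi, 1.85 and 1.28 for sgEED-Mes, 0.0361 and 0 for C2-Epi, and 167 and 88.1 for C2-Mes. It rose in C2 alone (interaction adjusted p = 8.9e-08). LAMA2, the laminin chain of muscle, was at 3.09 and 2.28 CPM for sgEED-Epi, 188 and 153 for sgEED-Mes, 3.69 and 3.42 for C2-Epi, and 4.21 and 8.43 for C2-Mes. It rose by log2 5.99 under the guide, and its rise in C2 (0.86) was lost without C2-Mes replicate 2 (0.21, adjusted p = 0.52), C2-Epi replicate 1 (0.91, adjusted p = 0.071) or C2-Epi replicate 2 (0.81, adjusted p = 0.10). Of 29 measured non-collagen matrix genes 8 were called higher and 10 lower. FN1, which encodes fibronectin, was at 15230 and 16990 CPM for sgEED-Epi, 95580 and 98000 for sgEED-Mes, 12350 and 12520 for C2-Epi, and 37560 and 34810 for C2-Mes (log2 1.05, adjusted p = 4.8e-04). The proteoglycan gene DCN was at 10.2 and 10.1 CPM for sgEED-Epi, 191 and 196 for sgEED-Mes, 0 in both C2-Epi libraries, and 258 and 152 in C2-Mes. The mesenchymal groups overlapped, and the difference came from the start: the rise was at least 1830-fold in C2 and log2 4.26 under the guide, an interaction of at least 95.7-fold with a floor of 3 counts per library. TGFBI and CCN2, which encode adhesive matrix proteins, rose under the guide (log2 2.38 and 2.62) and fell in C2 (-2.64 and -0.79). THBS1 fell in C2 (-4.97) and did not pass under the guide (-0.28, adjusted p = 0.35).

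Of 21 measured collagen genes 17 rose in each lineage (19.2% of all genes rose under the guide and 21% in C2). The interaction was called higher for 4 and lower for 8 (median log2 -0.94). Both counts changed in fits that left out 1 library, among them those without C2-Mes replicate 1 or replicate 2. COL6A2, a chain of beaded filament collagen, was at 37.2 and 42.8 CPM for sgEED-Epi, 1103 and 652 for sgEED-Mes, 2.49 and 2.19 for C2-Epi, and 2727 and 2321 for C2-Mes (log2 -5.61, adjusted p = 5.0e-08). COL6A1, COL5A2 and COL3A1 likewise rose less under the guide (log2 -4.62, -3.93 and -3.44). COL3A1 ended at overlapping levels (4094 and 3276 CPM in sgEED-Mes, 2696 and 4253 in C2-Mes) and started at 20.03 and 16.6 in sgEED-Epi against 1.30 and 1.88 in C2-Epi. COL12A1 rose under the guide and fell in C2 (log2 0.99 and -2.60). COL4A1 and COL4A2, the basement membrane chains, rose more under the guide (interaction log2 2.29 and 2.17), and both lie on chromosome 13, whose genes moved together as given further on. COL1A1 had no called interaction (-0.08, adjusted p = 0.98), with C2-Mes at 484 and 2964 CPM. The value was -0.86 without C2-Mes replicate 1 (adjusted p = 0.0078) and 1.75 without replicate 2 (adjusted p = 3.7e-05). POSTN, another matrix gene on chromosome 13, stood at 586 and 360 CPM in sgEED-Mes and 5.26 and 2.05 in C2-Mes, and its interaction did not pass (adjusted p = 0.14) with at most 4 counts in either epithelial group.

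Among proteases and their inhibitors 8 of 22 measured were called lower and 1 higher. SERPINE2, an inhibitor of thrombin and plasminogen activators, was at 494 and 560 CPM for sgEED-Epi, 475 and 575 for sgEED-Mes, 183 and 177 for C2-Epi, and 1971 and 1523 for C2-Mes (log2 -3.29, adjusted p = 1.1e-07). The sgEED groups overlapped and lay between the C2 groups. ADAMTS1 gave log2 -3.16, and the collagenase gene MMP1 fell under the guide (-2.17) and rose in C2 (2.32). The higher count of this list was 6 without C2-Mes replicate 2.

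Of 13 measured contractile genes, the smooth muscle and stress fibre programme, 6 were called higher and 1 lower, with a median interaction of log2 1.27, and no fit that left out 1 library gave fewer than 6. TAGLN, the actin-binding protein transgelin, was at 10.7 and 13.4 CPM for sgEED-Epi, 1008 and 814 for sgEED-Mes, 1.19 and 0.769 for C2-Epi, and 0.935 and 0.703 for C2-Mes. The C2 groups overlapped near 1 CPM, sgEED-Epi was above them and sgEED-Mes far above all (interaction log2 6.54, SE 0.36, adjusted p = 3.25e-08). TPM1, a tropomyosin, was at 253 and 267 CPM for sgEED-Epi, 1329 and 1659 for sgEED-Mes, 43.4 and 43.2 for C2-Epi, and 27.9 and 37.4 for C2-Mes. It rose by log2 2.52 under the guide. Its fall in C2 (-0.40, adjusted p = 0.047) was lost without C2-Mes replicate 1 (-0.21, adjusted p = 0.26), without either C2-Epi library (adjusted p = 0.15 and 0.14), or without either sgEED-Epi library (adjusted p = 0.054). LMOD1, which nucleates actin in smooth muscle, was at 23.4 and 24.7 CPM in sgEED-Mes and between 0.0584 and 0.181 in the other 6 libraries. MYL9 and ACTA2, the myosin light chain and actin of smooth muscle, gave interactions of log2 2.84 and 2.86. Titin (TTN), by contrast, was at 114 and 110 CPM in C2-Mes alone and at most 0.115 elsewhere, while MYOD1 had no count. The interaction of TTN (adjusted p = 0.0057) could not be called without sgEED-Epi replicate 2 (adjusted p = 1.0).

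**Figure D3:**
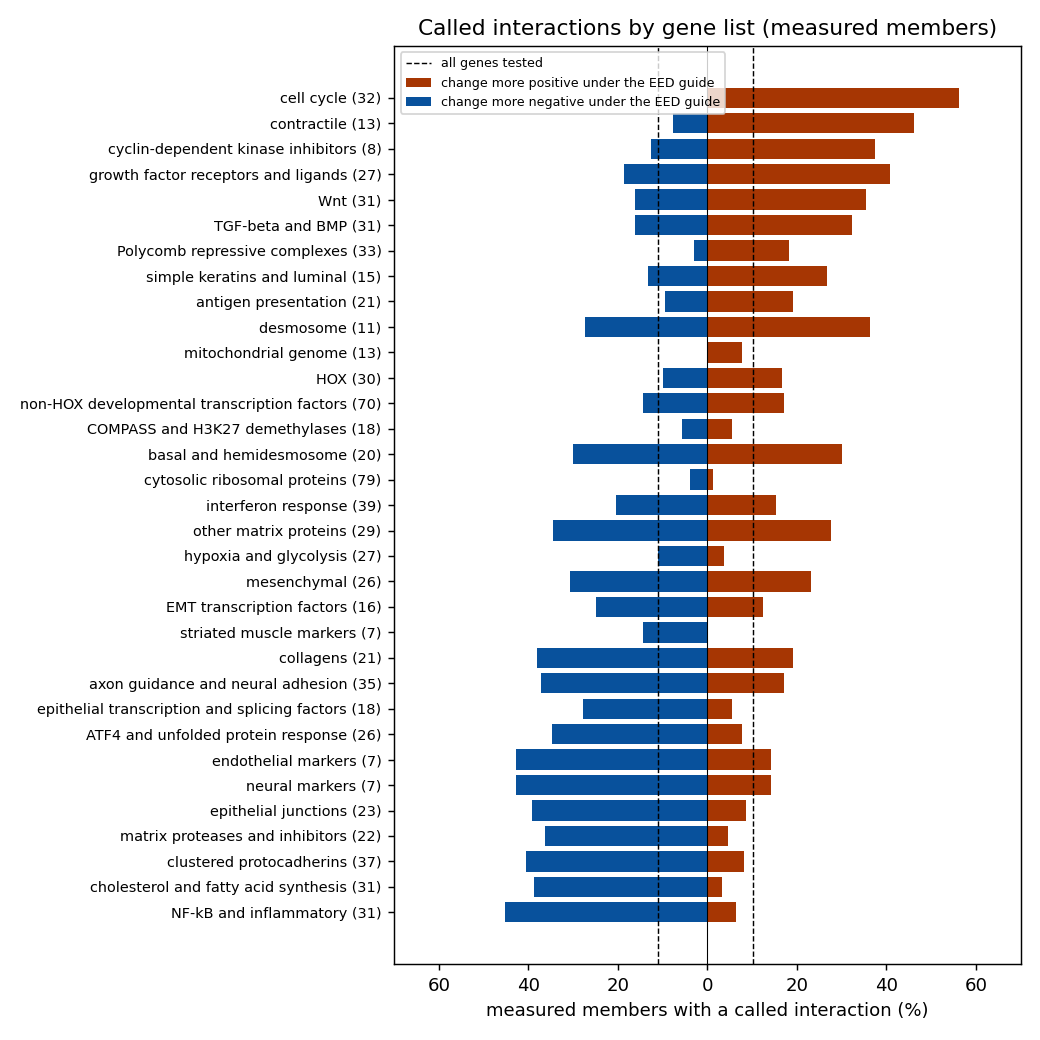
Bars give the percentage of the measured members of each gene list with a called interaction, to the right for a more positive and to the left for a more negative change under the EED guide, with the number measured in parentheses and dashed lines at the 10.2% and 10.9% of all genes. Lists with at least 7 measured members are shown. The cell cycle list has 18 of 32 to the right and 0 to the left, and the NF-kB list 14 of 31 to the left.

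Growth factor signalling differed in ligands and receptors. Of 31 measured TGF-beta and BMP genes 10 were called higher and 5 lower, of 27 growth factor genes 11 and 5, and of 31 Wnt genes 11 and 5. With 1 library left out the TGF-beta list ran from 8 to 13 higher calls and the growth factor list from 3 lower calls (without replicate 1 of any of the 4 groups) to 8 (without C2-Mes replicate 2). INHBA, the activin A subunit, was at 318 and 190 CPM for sgEED-Epi, 146 and 144 for sgEED-Mes, 190 and 215 for C2-Epi, and 8.18 and 2.52 for C2-Mes (log2 4.49, adjusted p = 5.6e-05). PMEPA1, a feedback target of TGF-beta signalling, fell in C2 (log2 -2.74) and did not pass under the guide (-0.05). LRRC32, the surface receptor GARP that displays latent TGF-beta, had no count in sgEED-Epi and reached 74.4 and 56.1 CPM in sgEED-Mes, at least 595-fold higher, and at or below 0.0584 in C2. LTBP1 and LTBP3, which store latent TGF-beta in the matrix, and the co-receptor TGFBR3 moved the other way (interaction log2 -1.84, -2.45 and -3.21). BMP4 rose under the guide and fell in C2: it was at 7.05 and 7.48 CPM for sgEED-Epi, 15.02 and 15.2 for sgEED-Mes, 2.31 and 2.23 for C2-Epi, and 0.0584 and 0.0320 for C2-Mes. The rise was lost without sgEED-Epi replicate 1 (adjusted p = 0.071) or replicate 2 (adjusted p = 0.056).

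IGF2, a fetal growth factor, was at 16.9 and 14.5 CPM for sgEED-Epi, 65.4 and 96.8 for sgEED-Mes, 2.999 and 2.92 for C2-Epi, and 0.877 and 0.0639 for C2-Mes. The sgEED groups rose and the C2 groups fell, without overlap (interaction log2 5.34, adjusted p = 3.5e-05). Ligands of the EGF family divided. NRG1 fell in C2 (log2 -3.41) and did not pass under the guide (-0.29), HBEGF rose under the guide and fell in C2 (1.41 and -2.03), and EPGN fell under the guide and rose in C2 (-3.38 and 2.33). PDGFA and PDGFB were kept more in sgEED-Mes (interaction log2 3.07 and 3.79). FGFR3 was at 19.9 and 23.9 CPM for sgEED-Epi, 9.21 and 5.64 for sgEED-Mes, 89.0 and 83.9 for C2-Epi, and 1.17 and 1.76 for C2-Mes, a smaller fall under the guide (log2 4.28). FGFR1 rose in both lineages, less under the guide (log2 1.79 against 4.33). In the Wnt list SFRP1, a secreted inhibitor of Wnt ligands, was at 74.0 and 87.2 CPM for sgEED-Epi, 30.5 and 33.3 for sgEED-Mes, 19.8 and 21.5 for C2-Epi, and 0.175 and 0.128 for C2-Mes (log2 5.77, adjusted p = 2.3e-08). LEF1, a nuclear effector of the pathway, rose under the guide (log2 2.25) and did not pass in C2 (0.06). RNF43, which removes Wnt receptors from the surface, fell by log2 -3.42 under the guide and by at least 124-fold to 0 in C2-Mes. The ligand gene WNT9A was at 12.1 and 11.9 CPM for sgEED-Epi, 1.20 and 1.01 for sgEED-Mes, 1.26 and 0.692 for C2-Epi, and 4.85 and 7.03 for C2-Mes (log2 -6.03).

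The genes with opposite directions included several at high levels. EFEMP1, the matrix protein fibulin-3, was at 278 and 281 CPM for sgEED-Epi, 924 and 1137 for sgEED-Mes, 89.2 and 95.3 for C2-Epi, and 3.86 and 2.05 for C2-Mes. The 4 groups did not overlap, and the difference was log2 6.90 (SE 0.30, adjusted p = 6.9e-09), from a rise of 1.88 and a fall of -5.02. TP53I11, a target of p53, went from 11.4 and 13.2 to 111 and 94.0 CPM under the guide and from 5.71 and 5.57 to 0.526 and 0.895 in C2 (log2 5.97). TSPAN2, a tetraspanin, rose by log2 3.18 under the guide and fell to 0 in C2-Mes, an interaction of at least 97.5-fold. EGLN3, an oxygen-sensing prolyl hydroxylase, rose by log2 1.68 and fell by -3.37.

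Falling under the guide and rising in C2 were EVA1C, FBXL7, GALC, PLIN4 and CSF3 among others. EVA1C, a slit-binding membrane protein, was at 10.1 and 11.3 CPM for sgEED-Epi, 0.762 and 1.06 for sgEED-Mes, 0.506 and 0.961 for C2-Epi, and 15.5 and 17.7 for C2-Mes. The epithelial start of 1 lineage was near the mesenchymal end of the other, and the difference was log2 -8.07 (SE 0.36, adjusted p = 8.3e-09). FBXL7, a ubiquitin ligase subunit, was at 12.4 and 13.3 CPM in sgEED-Epi, 0 in both sgEED-Mes libraries, 0.289 and 0.423 in C2-Epi, and 5.67 and 11.5 in C2-Mes, an interaction of at least 2570-fold. GALC, a lysosomal galactosidase, was at 3.31 and 4.28 CPM for sgEED-Epi, 0 and 0.0440 for sgEED-Mes, 1.26 and 0.922 for C2-Epi, and 12.2 and 13.5 for C2-Mes (adjusted p = 6.6e-08, with no fold given against 1 count). PLIN4, a lipid droplet coat protein, fell by log2 -4.04 under the guide and rose by 3.04 in C2.

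Of 31 measured members of the NF-kB and inflammatory list, 14 were called lower and 2 higher, with a median of log2 -1.52. Under the guide 16 fell and 2 rose (17.3% and 19.2% of all genes). In C2 9 rose and 8 fell, near the 21% and 18.6% of all genes. CSF3, the granulocyte growth factor, was at 3.62 and 4.56 CPM for sgEED-Epi, 0.363 and 0.132 for sgEED-Mes, 10.4 and 6.76 for C2-Epi, and 115 and 50.2 for C2-Mes (log2 -7.23, adjusted p = 2.3e-06). The chemokine gene CXCL1 and the mitochondrial dismutase gene SOD2 rose in C2 and did not pass under the guide (interaction log2 -4.53 and -4.24). IL1B was at 13.6 and 15.02 CPM for sgEED-Epi, 0.109 and 0.176 for sgEED-Mes, 6.94 and 7.07 for C2-Epi, and 8.53 and 0.383 for C2-Mes. It fell under the guide (log2 -6.63). The C2-Mes libraries disagreed on IL1B, whose C2 change was -0.75 (adjusted p = 0.44) and -4.17 without replicate 1 (adjusted p = 1.8e-09). IL6 likewise was at 7.36 and 0.320 CPM in C2-Mes, and its interaction of -5.13 was lost without replicate 1 (-1.66, adjusted p = 0.074). The number of lower calls in this list was 8 without C2-Mes replicate 1, 21 without replicate 2 and 6 without C2-Epi replicate 1, and 4 with only the 8 libraries fitted.

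Of 39 measured interferon response genes 6 were called higher and 8 lower (median log2 -0.26). Higher calls were 3 without C2-Epi replicate 1 and 2 with only the 8 libraries fitted or with voom, and lower calls were 12 without sgEED-Mes replicate 1 and 4 with the 8 libraries. HERC5, an interferon-induced ligase, fell in C2 alone (log2 -3.03), and IFITM2 and IFI44L rose in both lineages, less under the guide (interaction log2 -2.05 and -1.92). The class II antigen presentation genes HLA-DPB1 and HLA-DPA1, which lie head to head and overlap, moved together. HLA-DPB1 was at 7.31 and 7.30 CPM for sgEED-Epi, 12.2 and 13.1 for sgEED-Mes, 4.01 and 3.42 in C2-Epi, and 0 in both C2-Mes libraries, an interaction of at least 47.4-fold. HLA-DPA1 rose by log2 1.88 and fell by -3.87. As the strand setting of the counting is not given, their reads may be shared. HLA-F fell in C2 (log2 -3.15) and HLA-B rose under the guide (1.39).

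Of 32 measured cell cycle genes, 18 interactions were called higher and 0 lower by edgeR, and voom called 12 and 0. At an unadjusted p under 0.05 edgeR gave 0 lower. In C2 21 fell and 1 rose (18.6% of all genes fell), under the guide 2 fell and 2 rose, and between the mesenchymal groups 31 were higher in sgEED-Mes (21.7% of all genes were). The median interaction was log2 0.97, from medians of 0.07 under the guide and -0.94 in C2. The 18 calls became 13 without C2-Epi replicate 1, 26 without C2-Mes replicate 2, and 9 with only the 8 libraries fitted. CCNA2, the S-phase and mitotic cyclin, was at 87.3 and 91.5 CPM for sgEED-Epi, 89.2 and 141 for sgEED-Mes, 83.6 and 84.4 for C2-Epi, and 31.6 and 30.0 for C2-Mes (log2 1.82, adjusted p = 1.5e-04). C2-Mes was below the other 6 libraries. BUB1, a spindle checkpoint kinase, gave log2 1.60 and KIF20A, a kinesin of cytokinesis, 1.88, both with C2-Mes lowest. MKI67, the proliferation antigen Ki-67, was at 898 and 365 CPM for sgEED-Epi, 792 and 794 for sgEED-Mes, 434 and 468 for C2-Epi, and 201 and 223 for C2-Mes. Its difference of log2 1.41 (adjusted p = 0.031) was lost in 6 of the 8 fits with 1 library left out, with adjusted p from 0.063 to 0.12, and held without either sgEED-Epi library. Of 8 measured cyclin-dependent kinase inhibitors 3 were called higher and 1, CDKN1C, lower. Among the higher was CDKN2C, which rose under the guide (log2 2.48) and did not pass in C2 (-0.37, but -1.43 with adjusted p = 3.7e-05 without C2-Mes replicate 2). CDKN1A and CDKN2A had no called interaction (adjusted p = 0.84 and 0.60). Their C2-Mes libraries differed, at 993 and 379 CPM for CDKN1A and 59.7 and 173 for CDKN2A. Without C2-Mes replicate 2 both passed, at log2 -0.72 (adjusted p = 0.034) and 1.37 (adjusted p = 8.0e-05).

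Enzymes of lipid synthesis leaned to lower values in sgEED-Mes. Of 31 measured genes of cholesterol and fatty acid synthesis, 12 interactions were called lower and 1 higher (median log2 -0.85). Under the guide 18 fell and 3 rose (17.3% and 19.2% of all genes), and in C2 8 rose and 4 fell (21% and 18.6%). FASN, the fatty acid synthase, was at 721 and 815 CPM for sgEED-Epi, 377 and 258 for sgEED-Mes, 1094 and 966 for C2-Epi, and 1375 and 2253 for C2-Mes (log2 -2.09, adjusted p = 3.5e-04). Its rise in C2 (0.82) was lost without C2-Epi replicate 2 (0.73, adjusted p = 0.086) or C2-Mes replicate 2 (0.38, adjusted p = 0.15). LSS, an enzyme of the sterol branch, fell under the guide and rose in C2 (interaction log2 -2.01). FADS2, a desaturase of polyunsaturated fatty acids, did the opposite: it was at 34.4 and 42.4 CPM for sgEED-Epi, 118 and 93.8 for sgEED-Mes, 51.0 and 45.3 for C2-Epi, and 10.6 and 17.1 for C2-Mes (log2 3.25, adjusted p = 2.2e-06). Lower calls in this list numbered 22 without C2-Mes replicate 1 and higher calls 5 without C2-Mes replicate 2.

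Of 26 measured genes of the ATF4 and unfolded protein response, 9 were called lower and 2 higher, and 3 were lower with only the 8 libraries fitted. TRIB3, a target of ATF4, was at 84.2 and 99.2 CPM for sgEED-Epi, 28.1 and 19.2 for sgEED-Mes, 86.1 and 82.6 for C2-Epi, and 141 and 127 for C2-Mes (log2 -2.62, adjusted p = 1.5e-05). Its rise in C2 (0.67) was lost without C2-Epi replicate 1 (adjusted p = 0.064) or replicate 2 (0.089). Of 27 measured hypoxia and glycolysis genes 1 was called higher and 3 lower (14.8%, against 21.1% of all genes). There were 5 higher without C2-Mes replicate 1 and 7 lower without replicate 2. CA9 and SLC2A3, a carbonic anhydrase and a glucose transporter induced by low oxygen, rose in C2 (log2 2.67 and 2.25) and did not pass under the guide.

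Developmental regulators, known Polycomb targets in many cell types, gave 12 higher and 10 lower interactions among 70 measured factors outside the HOX clusters, and 5 and 3 among 30 HOX genes. These are 31.4% and 26.7% called, against 21.1% of all genes. The transitions raised 34 of the 70 under the guide (19.2% of all genes) and 18 in C2 (21%), and lowered 9 and 13. Differences between the lineages were also present within each state: 41 of the 70 were higher in sgEED-Epi than in C2-Epi (17.4% of all genes) and 5 lower, and 48 were higher in sgEED-Mes than in C2-Mes and 8 lower (21.7% and 20.2% of all genes). TBX18, a T-box factor of mesenchyme, rose in both lineages and less under the guide (log2 1.97 against 7.42), as did SIX2 (1.47 against 6.24). LHX1, a factor of kidney and nervous system, was at 11.2 and 12.9 CPM for sgEED-Epi, 4.24 and 4.18 for sgEED-Mes, 3.04 and 2.88 in C2-Epi, and 0 in both C2-Mes libraries. HOXB9 was at 21.6 and 25.6 CPM for sgEED-Epi, 59.6 and 62.1 for sgEED-Mes, and at most 1.04 in the C2 libraries. It rose under the guide (log2 1.37), and its fall in C2 (-1.66) was lost without C2-Mes replicate 2 (-0.51, adjusted p = 0.39) or C2-Epi replicate 2 (-1.41, adjusted p = 0.14).

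An imprinted locus on chromosome 15 was silent in 1 group. SNHG14, the long host transcript of the Prader-Willi region, was at 0.267 and 0.281 CPM for sgEED-Epi, 58.4 and 69.5 for sgEED-Mes, 59.6 and 67.0 for C2-Epi, and 99.8 and 75.0 for C2-Mes. SNRPN, a splicing gene within the same transcription unit, was at 0.0762 and 0.0702 CPM for sgEED-Epi, 8.74 and 9.38 for sgEED-Mes, 8.20 and 8.07 for C2-Epi, and 11.04 and 16.4 for C2-Mes. Both interactions were called (log2 7.38 and 6.10), and for both the sgEED-Epi libraries alone stood apart. The overlapping transcripts of this locus can share reads.

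Of 35 measured neural adhesion and guidance genes 6 were called higher and 13 lower (54.3%, against 21.1% of all genes, median log2 -0.40). EPHA4, an ephrin receptor, was at 11.3 and 11.6 CPM for sgEED-Epi, 23.7 and 25.2 for sgEED-Mes, 0.145 and 0.269 for C2-Epi, and 36.4 and 43.7 for C2-Mes (log2 -6.48, adjusted p = 8.5e-09). SLIT2 and SLIT3, secreted repellents of the same family, parted (interaction log2 -3.44 and 4.24). Clustered protocadherins, adhesion genes with alternative first exons, rose in C2: 31 of 37 measured rose and 3 fell there (21% and 18.6% of all genes). Under the guide 17 rose and 4 fell (19.2% and 17.3% of all genes). The interaction was lower for 15 and higher for 3 (10.9% and 10.2% of all genes), with a median of log2 -1.74. PCDHGA2 was at 2.40 and 2.18 CPM for sgEED-Epi, 3.92 and 3.96 for sgEED-Mes, 0.686 and 0.423 for C2-Epi, and 18.8 and 21.5 for C2-Mes (log2 -4.38). The genes of a cluster share their last exons, so these counts are not independent of each other and their split between genes is uncertain. Cytosolic ribosomal protein genes gave 4 calls of 79 (5.06%), of which RPS7, RPL7A and RPL21 lie in the shifted regions described next. Without C2-Mes replicate 2 their lower calls rose from 3 to 14.

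Called interactions were uneven along the genome. On chromosome 13, 174 of 337 tested genes were called higher and 6 lower (53.4% called), and 292 had a positive interaction. The median interaction there was log2 1.18, from 0.80 under the guide and -0.30 in C2. Against C1, the median level of chromosome 13 genes was -0.60 and -0.74 in the sgEED-Epi libraries, 0.01 and 0.19 in sgEED-Mes, 0.31 and 0.40 in C2-Epi, and 0.02 and -0.04 in C2-Mes. The sgEED-Epi libraries were lowest and those of C2-Epi highest, without overlap. In the epithelial comparison 196 chromosome 13 genes were lower in sgEED-Epi than in C2-Epi (12.2% of all genes were) and 17 higher. All 8 of its 10 Mb bins were shifted. Chromosome 13 genes were 9.33% of all higher calls and 40 of the 303 genes that rose under the guide and fell in C2. Dropping them without a new fit, a choice made after seeing the data, left 1690 higher and 1996 lower calls (20.5% of the genes left). Of these calls, 508 had opposite directions. DNA was not measured here, and whether copy number moved with these levels was not tested.

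**Figure D4:**
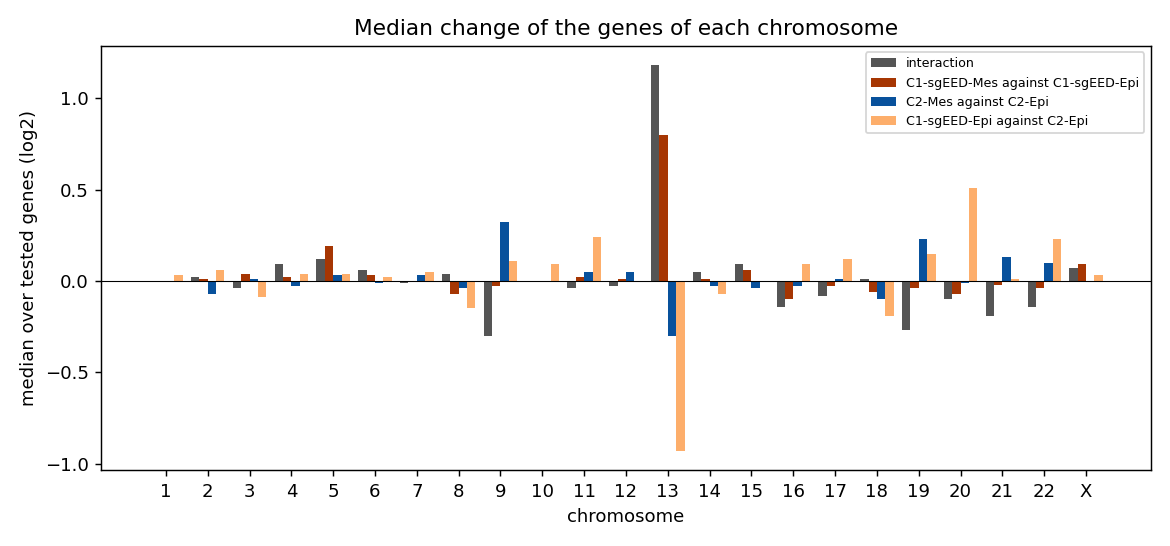
Bars give, for each chromosome, the median over its tested genes of the interaction, of the 2 transitions and of the difference between the epithelial groups, as log2. Chromosome 13 stands apart with a median interaction of 1.18 and an epithelial difference of -0.93, and on no other chromosome does the median interaction exceed 0.30 in size.

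Shorter stretches also had a shifted median interaction. In 17 of 278 bins of 10 Mb (each with at least 20 tested genes) the median interaction was at least 0.5 in size, 8 on chromosome 13 and 9 elsewhere. In the first 20 Mb of chromosome 2 the median was log2 -1.05 over 67 genes, and the C2-Epi libraries stood apart at -0.79 and -0.80 against C1, with all other compared libraries between -0.02 and 0.24. This stretch holds GRHL1, RPS7 and ID2, all with called interactions. In the first 20 Mb of chromosome 8 the median was 0.74 over 72 genes, and C2-Mes replicate 2 stood at -0.72 against C1 while replicate 1 was at -0.14. The last stretch of chromosome 9, from 130 to 140 Mb, had a median of -0.72, but no group stood apart there. Levels against C1 were -0.45 and -0.58 in C2-Epi and -0.19 and 0.23 in C2-Mes. They were -0.31 and -0.16 in sgEED-Epi and -0.22 and -0.57 in sgEED-Mes. The 17 bins held 381 called genes. Dropping their genes, also without a new fit, left 3485 called interactions, 472 with opposite directions. Of the 4 higher calls in the collagen list, 2 (COL4A1 and COL4A2) lay in such bins, as did SPARC and PDGFRB of the mesenchymal list, SLIT3, FAT2, ID2 and SMAD9. None of DSP, KRT8, SYK, TAGLN, EFEMP1, LAMA4, PDGFRA, MAL2, ITGB4 and CSF3 did.

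By kind of gene, 24.4% of 13993 protein-coding genes had a called interaction, against 12.6% of 2447 long non-coding genes. RefSeq windows of 300 bases (250 before to 50 after the start) were found for 11251 of the protein-coding genes, and 18.4% of them hold CACCTG on either strand, as in the sequences of DSP, DSC2 and KRT5. The share was 31.4% for genes that fell in both transitions and 14% for those that rose in both. Among genes that fell in both, it was 36.7% where the fall was smaller under the guide, 43.8% where it was larger, and 28.3% where no interaction was called. Where the interaction was called and the fall passed in C2 alone, the class of DSP, the share was 22%. It was 22.8% where the fall passed under the guide alone. It was 20.9% over all genes with a called interaction. These classes also differed in base composition: the ratio of observed to expected CpG was at least 0.6 in 80.2% of all windows and in 63.8% of both falling classes with a called interaction. Its part in the E-box shares was not tested.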

How the data were processed

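RNA was sequenced from HMLER cells, and the authors deposited whole-number read counts per gene for each library. Per the submitters' processing notes they used STAR 2.7.1a, featureCounts and GRCh38; the strand setting and annotation are not given in the sources used here. Of the 60448 gene IDs, 94.1% matched GENCODE 29, which gave names and positions. Counts were fitted with edgeR 4.0.16 (R 4.3.3): filterByExpr, TMM, 1 mean per group over all 16 libraries, robust quasi-likelihood test with 8 residual degrees of freedom, Benjamini-Hochberg adjustment over 18285 genes, calls at 0.05. Pooling all groups shares 1 estimate of spread. Total counts of the compared libraries were 18872124 to 31950649. On simulated data of 18285 genes with 2 libraries a group, 18% of 2-fold and 60% of 4-fold interactions were recovered, and 7 unchanged genes were called. The simulation gave all groups 1 spread per gene, whereas the C2-Mes replicates differed most in the data. It also changed only 50 genes at each fold size, all in sgEED-Mes, whereas 3866 interactions were called in the data. The simulation therefore can give neither the rate of false calls nor the share of differences found in this contrast. limma 3.58.1 (voom) and DESeq2 1.42.0 were alternatives. A fold against a group at 0 counts uses a floor of 3 counts per library, and a gene with 1 to 3 counts in a group gets no fold against it.

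Genes named are the largest interactions of each class called in all leave-one-out fits with at least 5 CPM, the 3 largest per gene list, and a fixed set of EMT genes; other list members were chosen after their values were seen. The gene lists and the comparison were chosen with earlier results of these data known. Chromosome 13 and the 10 Mb bins were examined after seeing the data. Some genes that these rules name are not reported here.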

Additional observations from a re-analysis of the deposited data

Results flagged for a closer look

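The interaction tests whether the transition change differs between the lineages, and it was called higher for 1864 genes and lower for 2002, with 548 called in opposite directions. Among the named genes with opposite directions, those falling under the EED guide and rising in C2 were CSF3 (interaction log2 -7.23), WNT9A (-6.03), EVA1C (-8.07), PLIN4 (-7.08) and FBXL7, which differed at least 2570-fold with sgEED-Mes at 0 counts. Among those rising under the guide and falling in C2 was TP53I11 (log2 5.97). With C2-Mes at 0 counts the difference was at least 97.5-fold for TSPAN2, 102-fold for FXYD6, 119-fold for PDE1C, 33.9-fold for SHISA9 and 23.2-fold for TRMT9B. These folds include the rise under the guide. The C2 fall alone was at least 10.8-fold for TSPAN2, 5.32-fold for FXYD6, 3.02-fold for PDE1C, 1.93-fold for TRMT9B and 1.22-fold for SHISA9. SHISA9 was at 0.217 and 0.115 CPM in C2-Epi, and its C2 fall lost its call without C2-Mes replicate 2. With 2 libraries a group, no library could be tested as an outlier within its group.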

How the results depend on the processing

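No gene called by the interaction was called in the other direction under any alternative. RLE scaling (3896 calls), no filter on low counts (4190) and DESeq2 (4201) kept every count within 1.5 times, as did the GC and length correction (5058) except for 370 opposite-direction genes falling under the guide. Fitting only the 8 compared libraries gave 2130 interactions (1097 higher, 1033 lower), 289 opposite (165 rising and 124 falling under the guide) and 3198 epithelial differences. voom with quality weights gave 2456 interactions (1102 higher), 298 opposite (142 and 156), 4527 changes in C2 and 5909 under the guide. It gave 7026 epithelial and 3909 mesenchymal differences, the reverse of the order in the main fit. Against a log2 difference of 1 there were 1456 interactions (774 higher, 682 lower), 96 opposite (56 and 40), 2853 changes in C2, 2363 under the guide, 1398 epithelial and 2918 mesenchymal differences. The replicate numbers did not pair the libraries (correlations from -0.371 to 0.219), and a fit of the 8 libraries with a replicate block gave 1737 interactions (897 higher, 840 lower), 230 opposite (132 and 98), 4615 changes in C2, 4015 under the guide, 2708 epithelial and 4941 mesenchymal differences; with the GC and length correction added it gave 2850. Both of these fits have fewer samples.

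Leaving out 1 library gave 2710 to 5566 interactions, 1344 to 2839 higher, 1366 to 2727 lower, 396 to 840 opposite (227 to 437 rising, 169 to 403 falling under the guide), 5271 to 8390 changes in C2, 5240 to 8333 under the guide, 3130 to 7353 epithelial and 6186 to 9449 mesenchymal differences. The epithelial count moved most without C2-Epi replicate 2 (3130) and sgEED-Epi replicate 2 (3466), and the higher (2839) and opposite (840, of which 403 fell under the guide) counts without C2-Mes replicate 2. Signs turned with the C2-Mes library left out, here replicate 1 and then replicate 2: the C2 change was -1.88 and 2.59 for IL6, -0.67 and 0.69 for CDKN1A, 1.20 and -1.11 for AGR2 and 0.73 and -0.84 for CDKN2A, and the COL1A1 interaction was -0.86 and 1.75. The C2 change of TM7SF2 was -0.15 without replicate 2. In these genes the C2-Mes libraries differ, and the cause was not tested. In the simulation, which changed far fewer genes than were called here, most 2-fold differences were missed at this replication.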
